A study of Homo sapiens with 3 samples.

Results

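The proteasome is the protease complex that degrades ubiquitin-tagged proteins. Its barrel-shaped core particle, made of alpha rings (PSMA genes) and beta rings (PSMB genes), does the cutting. The regulatory particle, made of the AAA-ATPases (PSMC genes) and most PSMD subunits, recognises, unfolds and feeds in the substrates, and dedicated chaperones (PSMG genes, PSMD5, PSMD9 and PSMD10) help to assemble both. These genes are used in nearly all cells, unlike the interferon-inducible immunoproteasome subunits PSMB8, PSMB9 and PSMB10. The constitutive proteasome genes described here are the protein-coding genes of the RefSeq table of GRCh38.p14 whose symbols start with PSMA, PSMB, PSMC, PSMD, PSMF or PSMG, together with PSME3 and PSME4 and without the 3 immunoproteasome subunits. The rule gave 44 of 20037 coding genes, on 17 chromosomes. By their roles, 14 encode the core particle, 17 the regulatory particle, 7 assembly chaperones, 2 the activators PSME3 and PSME4, and 1 (PSMF1) the regulator PI31. The symbols also drew in 3 genes that are not constitutive subunits, namely the testis subunit gene PSMA8, the thymus subunit gene PSMB11, and PSMC3IP, whose product acts in meiotic recombination and is no proteasome subunit.

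SOX4, a high-mobility-group transcription factor that binds short A/T-rich sites, was immunoprecipitated with an Abcam antibody from BT549 cells, a human line grown from a triple-negative breast tumour, and the bound DNA was sequenced. There was 1 group of 3 libraries, replicates 1, 2 and 3, each titled UT, a tag the labels do not spell out, and labelled with a passage value of 5. Nothing in the labels says that they came from separate cultures, so the spread between them may be technical, and no control library was analysed here. Each library came as a list of summits, the 1 bp points of highest signal in its peaks, with 1368, 1713 and 4430 summits in replicates 1 to 3. The score of a summit is the authors' own, is taken here as −log10 of a p or q value, and ranks summits only within its list. Its median was 6.12, 5.57 and 5.58 over replicates 1 to 3. Read numbers were not analysed here, so the sequencing depth is unknown. The positions are those of GRCh38, and a summit was assigned to a gene when it lay within 5 kb of either end of the gene. With 1 group, no control and genes chosen with earlier results of these data known, all values below are descriptions and no test was made.

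Summits lay within 5 kb of 9 of the 44 genes in at least 1 library: the core genes PSMA2, PSMA5 and PSMB2, the regulatory particle genes PSMD2, PSMD6 and PSMD11, and the assembly genes PSMD5, PSMD10 and PSMG1. That is 20.5% of the genes, beside 17.8% of all coding genes, so the share was near the background. PSMD5 had a summit just upstream of its start in all 3 libraries. PSMA2, PSMB2 and PSMG1 had summits in 2 libraries, which made 4 genes with at least 2 libraries (9.09%, beside 3.91% of all coding genes). Leaving out replicate 1 gave 3 such genes (beside 2.35% of all coding genes). Without replicate 2 there were 2 (beside 2.41%), and without replicate 3 there was 1, PSMD5 (beside 1.30%). Within 1 kb of an end the count was 8 of 44 (18.2%, beside 15.1%). The other 35 genes, among them all 6 ATPase genes and the catalytic subunit genes PSMB5, PSMB6 and PSMB7, had no summit within 5 kb of an end.

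The promoters that hold a summit are shown first, to place each summit in its sequence. RefSeq promoter windows, 250 bases before to 50 bases after a listed start, were available for 38 of the 44 genes. No window was matched for PSMA7, PSMB1, PSMB6, PSMB7, PSMD4 and PSMG3. A summit fell inside the window of 5 genes: PSMD5 in 3 libraries, PSMB2 in 2, and PSMG1, PSMA1 and PSMD10 in 1 each. All 5 genes are on the minus strand of GRCh38.p14, and the windows are written 5′ to 3′ on the strand of the gene. Capitals mark the bases within 10 bp of a summit. The windows lie at chr9:120842873-120843172 for PSMD5, chr1:35641477-35641776 for PSMB2, chr21:39183402-39183701 for PSMG1, chr11:14520337-14520636 for PSMA1 and chrX:108091493-108091792 for PSMD10.
PSMD5: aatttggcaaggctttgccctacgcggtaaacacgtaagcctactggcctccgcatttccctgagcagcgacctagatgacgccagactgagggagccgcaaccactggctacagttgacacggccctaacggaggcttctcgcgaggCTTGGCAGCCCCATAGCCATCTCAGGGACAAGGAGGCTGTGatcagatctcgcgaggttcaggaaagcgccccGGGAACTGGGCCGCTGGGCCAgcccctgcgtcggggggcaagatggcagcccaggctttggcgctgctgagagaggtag
PSMB2: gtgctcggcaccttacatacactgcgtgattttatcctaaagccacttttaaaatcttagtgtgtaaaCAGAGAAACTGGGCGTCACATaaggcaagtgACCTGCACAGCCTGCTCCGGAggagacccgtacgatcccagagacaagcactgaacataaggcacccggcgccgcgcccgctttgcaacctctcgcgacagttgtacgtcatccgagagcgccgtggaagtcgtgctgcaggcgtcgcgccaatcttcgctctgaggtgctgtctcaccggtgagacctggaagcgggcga
PSMG1: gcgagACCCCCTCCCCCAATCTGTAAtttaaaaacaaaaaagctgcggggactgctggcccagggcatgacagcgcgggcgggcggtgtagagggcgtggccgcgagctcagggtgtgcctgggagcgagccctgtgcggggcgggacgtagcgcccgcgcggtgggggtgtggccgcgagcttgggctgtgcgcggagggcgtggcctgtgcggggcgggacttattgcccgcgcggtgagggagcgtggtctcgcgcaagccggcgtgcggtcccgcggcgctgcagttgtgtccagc
PSMA1: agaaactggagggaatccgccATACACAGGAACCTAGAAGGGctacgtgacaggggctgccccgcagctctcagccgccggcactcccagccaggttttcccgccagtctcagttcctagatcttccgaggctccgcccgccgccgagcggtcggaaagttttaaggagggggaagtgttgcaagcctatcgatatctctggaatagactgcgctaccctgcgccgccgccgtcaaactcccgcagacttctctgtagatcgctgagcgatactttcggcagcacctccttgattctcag
PSMD10: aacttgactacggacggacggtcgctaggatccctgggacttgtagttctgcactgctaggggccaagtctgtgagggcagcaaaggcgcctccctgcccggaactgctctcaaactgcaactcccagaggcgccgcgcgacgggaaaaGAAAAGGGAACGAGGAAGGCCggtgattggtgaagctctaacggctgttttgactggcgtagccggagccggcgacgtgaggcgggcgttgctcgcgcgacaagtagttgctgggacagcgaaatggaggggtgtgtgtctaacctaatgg
None of these 5 windows holds the SOX core letters ACAAAG or ACAATG on either strand. Of all coding gene windows 19.5% do, so 5 windows are too few to read anything from. Motif distances below are from the middle of the motif to the summit. The capitals of PSMG1 contain CCAAT, the core of an NF-Y site, 2 bp from the summit of replicate 3, which falls on the first base of the motif. In PSMD10 the same motif reads on the opposite strand, 17 bp from the summit. The PSMB2 window holds it 141 bp from the replicate 1 summit. CCAAT is in 36.4% of all coding gene windows. The windows of PSMD5 and PSMG1 each hold TGACNNNGC, the core of the antioxidant response element through which NFE2L1 is known to act on proteasome genes. These letters lie 38 bp from the replicate 1 summit in PSMD5 and 56 bp from the replicate 3 summit in PSMG1. They are in 14.4% of all windows. GGGCGG, the GC box, is in the windows of PSMG1 and PSMA1, no nearer than 63.5 bp to a summit. It is in 58.3% of all windows, and no match was tested.

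Among the assembly genes, PSMD5 encodes a chaperone of the ATPase ring and lies at chromosome 9, 120816053 to 120842922. Its summits were 92 bp, 19 bp and 72 bp upstream of the start in replicates 1, 2 and 3, all within 73 bp of each other. The 3 libraries therefore put the summit at the same place, and PHF19, the nearest other coding gene, was at least 12.6 kb away. The scores ran from 26.5 in replicate 1 to 4.58 and 3.34 in replicates 2 and 3. The rank differed widely, since 95.1% of the summits of replicate 1 scored lower, against 25.4% of replicate 2 and 3.43% of replicate 3. PSMD5 was the 1 gene of the 44 with a summit in all 3 libraries (2.27%, beside 1.07% of all coding genes). On chromosome 9, 24.3% of the coding genes were near a summit of any library and 2.57% near summits of all 3.

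PSMG1, which encodes a chaperone of alpha-ring assembly, lies at chromosome 21, 39174769 to 39183514. Its summit of replicate 2 lay inside the gene, 264 bp from the outer gene end, and that of replicate 3 lay 172 bp upstream of it. The scores were 6.03 and 6.48. The nearest summit of replicate 1 was 791 kb away, so the gene was marked in 2 libraries. Those summits were 436 bp apart, on either side of the start, which is beyond the 200 bp used here for 1 site. PSMD10 encodes gankyrin, a base-assembly chaperone known as an oncoprotein in liver. Its summit, in replicate 1, lay 91 bp upstream of the gene with a score of 5.08, and also 145 bp from a listed start of the autophagy protease gene ATG4A, inside the span of ATG4A. Replicates 2 and 3 had no summit nearer than 348 kb and 928 kb. Together, 3 of the 7 assembly genes had a summit within 5 kb (42.9%, beside 17.8% of all coding genes), and 2 of 7 in at least 2 libraries (28.6%, beside 3.91%), shares that rest on few genes. PSMD9, PSMG3 and PSMG4 had none within 108 kb in any library.

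Among the core genes, PSMB2 encodes a non-catalytic beta subunit and lies at chromosome 1, 35599541 to 35641526. Its summits were 141 bp upstream of the start in replicate 1, with a score of 6.66, and 172 bp upstream in replicate 3, with a score of 5.15. They were 31 bp apart and 46.1 kb from the next coding gene, TFAP2E. The nearest summit of replicate 2 was 303 kb away. PSMA2, an alpha-ring gene at chromosome 7, 42916861 to 42932174, had summits at both ends. The start-side summit of replicate 3 scored 4.64 and lay 644 bp upstream of PSMA2, but it was inside MRPL32, a mitochondrial ribosomal protein gene, 442 bp from the start of that gene. At the other end, replicate 2 had a summit at 4.86 kb with a score of 5.69 and replicate 3 one at 4.99 kb with a score of 10.7. That pair lay 65 bp and 197 bp from an end of C7orf25. PSMA5, also of the alpha ring, had a replicate 3 summit with a score of 7.44, 769 bp past its far end and 355 bp from an end of SORT1, which encodes the sorting receptor sortilin. For both alpha-ring genes an end of another coding gene was thus nearer to the summit than their own.

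Among the regulatory particle genes, PSMD2, a scaffold of the base that binds ubiquitin-like domains, had a replicate 3 summit 211 bp inside its start at chromosome 3, 184299452, with a score of 4.77. PSMD6, a lid subunit gene, had a replicate 3 summit at chromosome 3, 64023332, inside the gene and 162 bp downstream of a listed start, with a score of 7.84. That score stood above 83.7% of its list, against 29.7% for the PSMD2 summit. PSMD11, another lid gene, had a replicate 2 summit 3.11 kb past its far end, with a score of 3.25, above 4.09% of the list. CDK5R1, a neuronal activator gene of the kinase CDK5, was nearer to it at 561 bp. Each of these 3 genes was marked in 1 library only, and the nearest summits in the other libraries were at least 89.9 kb away. The 6 ATPase genes came no nearer than 10.7 kb, the distance of PSMC5 in replicate 3.

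**Figure D1:**
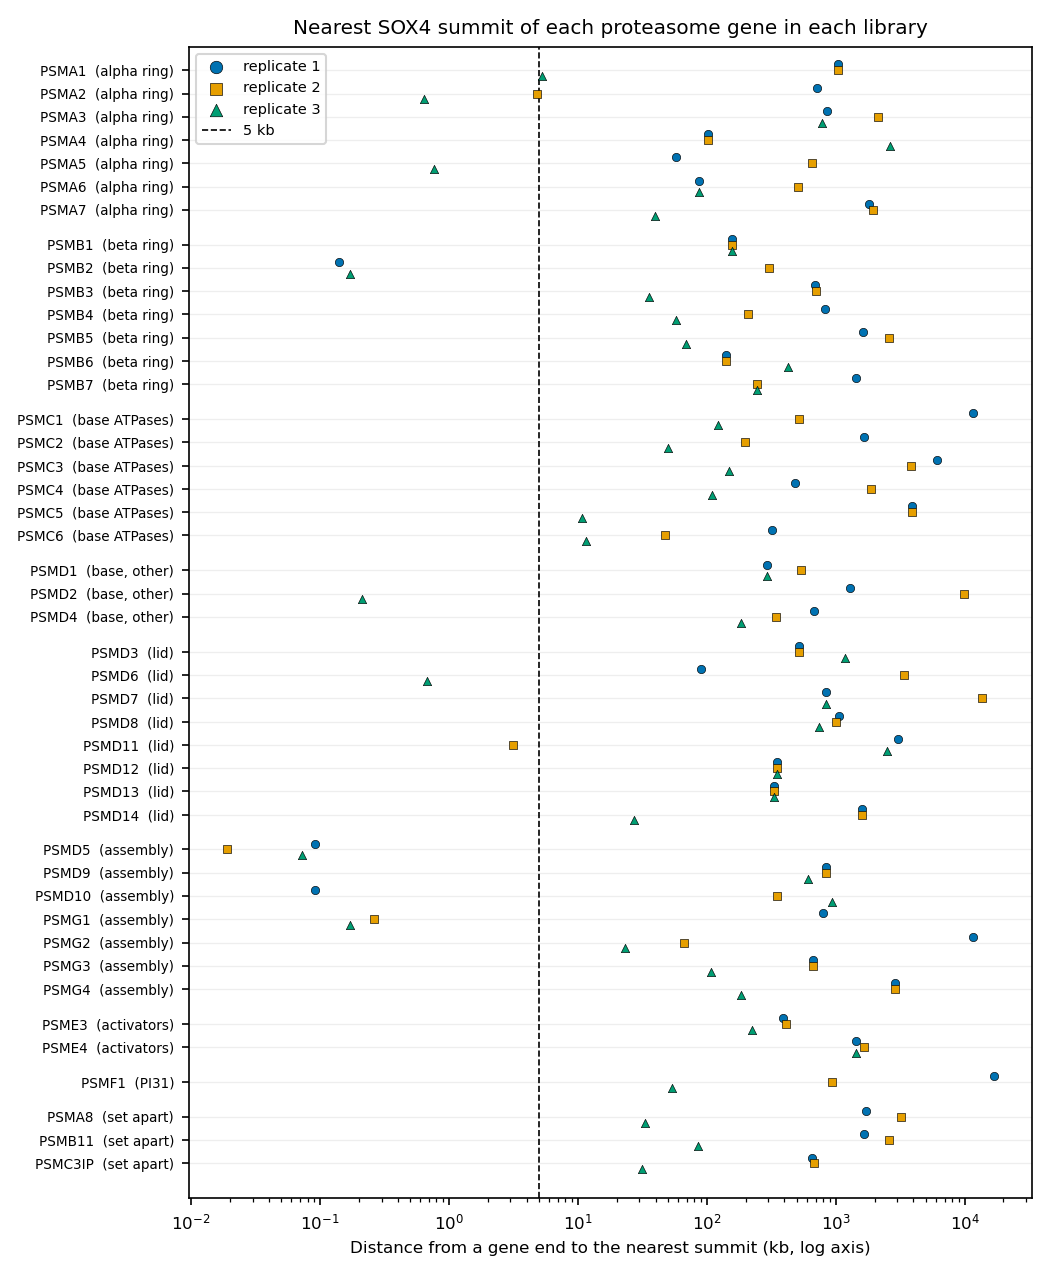
Distance in kb, on a log axis, from either end of each of the 44 genes to the nearest summit of replicate 1, 2 and 3, with genes ordered by their place in the complex and the 3 libraries offset vertically. PSMD5 has all 3 points left of the dashed 5 kb line, whereas the ATPase genes have none.

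Counting every summit rather than the nearest one per library, 15 summits lay within 5 kb of the 9 genes, and 12 of them within 1 kb of an end. The start side held 11 of the 15 and the far end 4. For 5 of the 15, all at PSMA2, PSMA5 and PSMD11, an end of another coding gene was nearer than the proteasome gene's own. The genes whose own end was the nearest numbered 6: PSMB2, PSMD2, PSMD5, PSMD6, PSMD10 and PSMG1. The 3 farthest of the summits inside the 5 kb limit were those of PSMA2 at 4.99 kb and 4.86 kb and of PSMD11 at 3.11 kb. Just outside were PSMA1 at 5.26 kb, PSMC5 at 10.7 kb, PSMC6 at 11.5 kb, PSMG2 at 23.2 kb and PSMD14 at 27.2 kb, each in replicate 3. Of these, 4 lay beside another gene: 197 bp from an end of COPB1, 60 bp from SMARCD2, 147 bp from ERO1A and 274 bp from CEP76. PSMD14, the deubiquitinase gene of the lid, had no other coding gene end nearer to its summit.

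Distances to gene ends miss starts inside a gene, and listed starts brought in a further pair of genes. PSMA1, an alpha-ring gene spanning chromosome 11, 14504876 to 14643662, has its listed start inside that span. A replicate 3 summit lay 219 bp upstream of it with a score of 5.95, and the nearest other listed coding start, of COPB1, was 20794 bp away. PSMG2, whose product pairs with that of PSMG1, had a replicate 3 summit 539 bp upstream of its second listed start, with a score of 7.04. That summit was nearer to the start of the centrosomal gene CEP76, at 220 bp, and lay inside both genes. Within 1 kb of a listed start, 9 of the 38 genes with one had a summit (23.7%, beside 16.3% of 15842 coding genes): PSMA1, PSMA2, PSMB2, PSMD2, PSMD5, PSMD6, PSMD10, PSMG1 and PSMG2. Their 13 summits lay 19 to 644 bp from the start, with a median of 172 bp. Upstream positions were held by 10 and downstream positions by 3, these being in PSMD2, PSMD6 and PSMG1. In at least 2 libraries the count was 3 of 38 (7.89%, beside 3.21%).

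**Figure D2:**
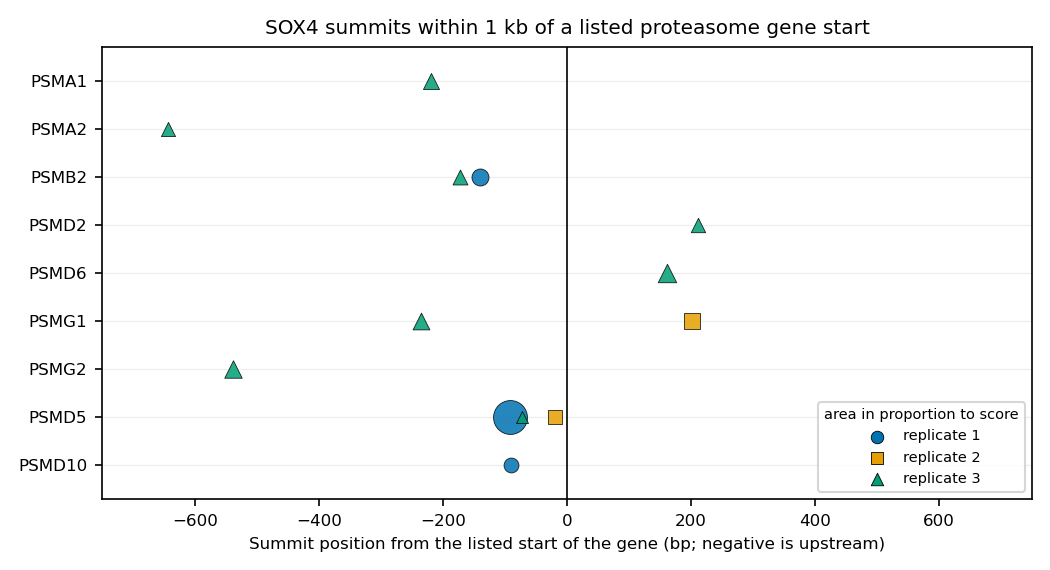
Position in bp of each summit within 1 kb of a listed proteasome gene start, with negative values upstream and the area of a point in proportion to the authors' score. PSMD5 shows summits of all 3 libraries within 100 bp upstream, PSMB2 those of replicates 1 and 3, and most other genes a single summit of replicate 3.

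The libraries contributed unequally. Replicate 1 had a summit within 5 kb of 3 genes (6.82%, beside 3.69% of all coding genes), PSMB2, PSMD5 and PSMD10. Replicate 2 had one near 4 genes (9.09%, beside 3.36%), PSMA2, PSMD5, PSMD11 and PSMG1. Replicate 3, with the longest list, had one near 7 genes (15.9%, beside 15.7%), PSMA2, PSMA5, PSMB2, PSMD2, PSMD5, PSMD6 and PSMG1. Without replicate 3, 6 of 44 genes had a summit of either other library (13.6%, beside 5.75%). Without chromosome 8, which is dense in summits and holds none of the 44, the background was 16.9% for any library and 3.36% for at least 2. In replicate 3 the share was therefore that of all coding genes, and in the other libraries it rested on 3 and 4 genes. The median distance of the 44 genes to the nearest summit was 806 kb, 594 kb and 97.3 kb in replicates 1 to 3, beside 911 kb, 1023 kb and 155 kb for all coding genes. Summits of 2 libraries within 200 bp of each other lay near 3 genes, PSMA2 at its far end, PSMB2 and PSMD5 (6.82%, beside 2.97%). Of all summits within 5 kb, 2 of 3, 2 of 4 and 4 of 8 in replicates 1 to 3 scored at or above the median of their own list. The highest were those of PSMD5 in replicate 1, at 26.5 and above 95.1% of the list, of PSMG1 in replicate 2, at 6.03 and above 55.2%, and of PSMA2 in replicate 3, at 10.7 and above 94.1%. In 4 genes the nearest summits of all 3 libraries fell within 200 bp of each other, but for PSMB1, PSMD12 and PSMD13 that place was 158 kb, 351 kb and 332 kb from the gene. The same count was not made for all coding genes, so it has no background here.

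Core and regulatory particle were then set side by side. Within 5 kb, 3 of 14 core genes (21.4%) and 3 of 17 regulatory particle genes (17.6%) had a summit of any library. All coding genes stood at 17.8%, so both shares were near the background. The difference between the particles was 3.78 percentage points. Taken library by library, it was 7.14 percentage points in replicate 1 (1 core gene and 0 regulatory particle genes), 1.26 in replicate 2 (1 and 1) and 9.66 in replicate 3 (3 and 2), a mean of 6.02 ± 4.31 (SD, n = 3). The core share was the higher in each library, on these few genes, and the difference was not tested. The difference over all libraries was 9.66 percentage points without replicate 2 and 8.40 without replicate 3, when 1 regulatory particle gene was left. In at least 2 libraries there were 2 of 14 core genes, PSMA2 and PSMB2 (14.3%), and 0 of 17 regulatory particle genes. With all coding genes at 3.91%, these counts are too small to read a contrast from. Counting only summits for which no other coding gene end was nearer gave 1 of 14 core genes, PSMB2. For the regulatory particle it gave 2 of 17 genes, PSMD2 and PSMD6. The sign of the difference then turned, on counts too small to read an order from. This count was not made for all coding genes, so it has no background here. Counting listed starts within 1 kb gave 3 of 10 core genes (30.0%) and 2 of 16 regulatory particle genes (12.5%). The same share over 15842 coding genes was 16.3%. The median distance to the nearest summit was 701 kb, 406 kb and 63.1 kb for core genes in replicates 1 to 3, and 843 kb, 536 kb and 149 kb for regulatory particle genes. Core genes had the shorter median in each library, although the ranges overlapped throughout, from 0.141 to 2636 kb in core genes and from 0.211 to 13645 kb in regulatory particle genes over the 3 libraries.

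**Figure D3:**
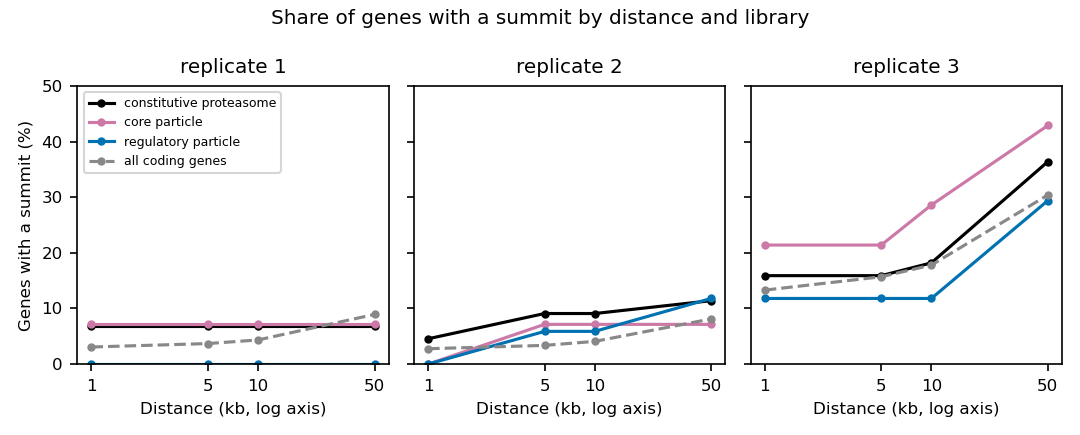
Percentage of genes with a summit of the given library within 1, 5, 10 and 50 kb of an end, on a log axis, for the 44 proteasome genes, the 14 core and 17 regulatory particle genes, and all 20037 coding genes. In replicate 3 the proteasome line runs close to that of all coding genes up to 10 kb, with core genes above it and regulatory particle genes below it.

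No summit lay within 5 kb of PSME3, PSME4 or PSMF1. PSME4, which encodes the activator PA200, was the 1 gene of the 44 with no summit within 1000 kb in any library, the nearest being 1449 kb away. PSME3, the gene of the nuclear activator PA28 gamma, had its nearest summit at 224 kb and PSMF1 at 54.1 kb, both in replicate 3. PSMA8, PSMB11 and PSMC3IP had theirs at 33.4, 85.2 and 31.3 kb, also in replicate 3. Over all 44 genes, 18 had a summit within 50 kb (40.9%, beside 34.4% of all coding genes) and 26 had none.

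Summits were also counted near genes whose products work with the constitutive complex. Of 5 immunoproteasome and PA28 genes, 3 had a replicate 3 summit within 5 kb (60.0%, beside 15.7% of all coding genes in that library): PSMB8, whose product replaces the catalytic subunit of PSMB5, and PSME1 and PSME2, which encode the interferon-inducible activator. None of the 3 summit distances was under 2.06 kb, the summit of PSMB8 lay 85 bp from an end of TAP2, and PSME1 and PSME2 shared 1 summit 375 bp from an end of EMC9. Of 19 cofactors and regulators of the proteasome, 10 had a summit (52.6%, beside 17.8% of all coding genes), of which 9 were in replicate 3 (47.4%, beside 15.7%). ZFAND5, which encodes a proteasome-binding activator, had summits 113 bp and 25 bp inside its start in replicates 2 and 3, with scores of 7.54 and 7.42. The ubiquitin shuttle gene UBQLN1 had a summit 79 bp upstream (score 9.53), and the ubiquitin ligase gene UBE3C one 87 bp upstream (score 8.32), both in replicate 3. RAD23B, another shuttle gene, had one 85 bp inside its start. The remaining 6 were ADRM1, a ubiquitin receptor of the proteasome, at 261 bp, DDI2, the protease that activates NFE2L1, at 271 bp, VCP, an unfolding ATPase, at 210 bp, the proteasome-bound thioredoxin gene TXNL1 at 175 bp, the deubiquitinase gene UCHL5 at 678 bp and NFE2L2, a stress-response factor gene, at 1.13 kb. The summit at UCHL5 lay 38 bp upstream of a listed start inside that gene and 214 bp from an end of RO60. The summit at NFE2L2 was of replicate 1 and lay 533 bp downstream of a listed start. NFE2L1 itself, the main activator of proteasome genes, had none within 5 kb. Genes of other large complexes were listed by symbol alone. Of these, 35 of 86 cytosolic ribosomal protein genes (40.7%) and 14 of 33 RNA polymerase subunit genes (42.4%) had a summit of any library. The share of all coding genes was 17.8%. In at least 2 libraries the order differed. There were 4 of 44 constitutive proteasome genes (9.09%), 8 of 86 ribosomal protein genes (9.30%) and 1 of 33 RNA polymerase genes (3.03%). Of the cofactors and regulators 1 of 19 was left (5.26%), ZFAND5, and of the immunoproteasome and PA28 genes 0 of 5. All coding genes stood at 3.91%. These lists were not tested against each other.

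**Figure D4:**
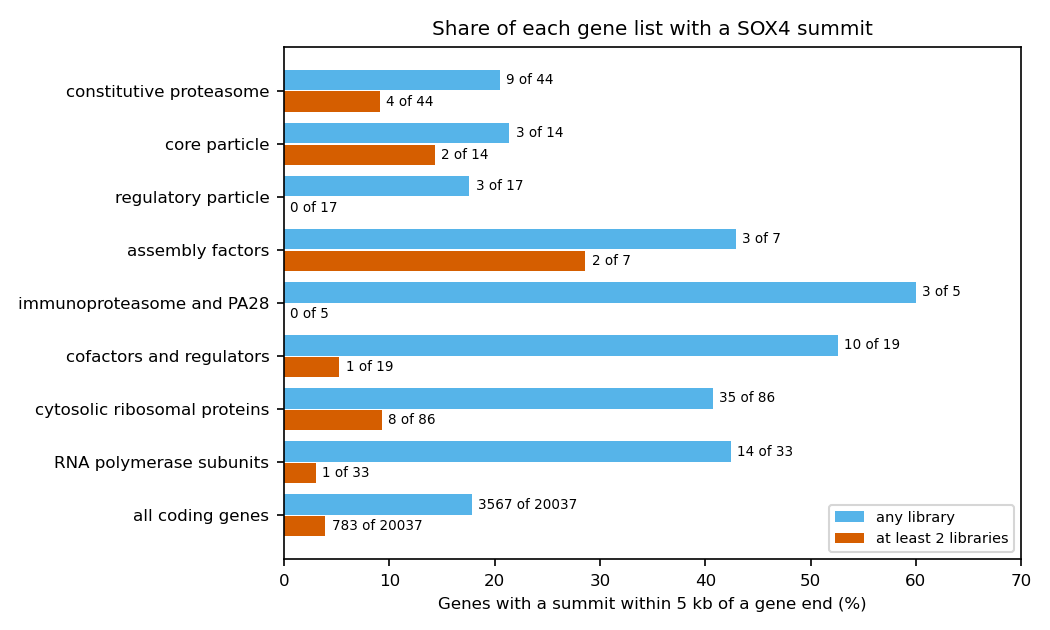
Percentage of genes in each list with a summit within 5 kb of an end, in any library and in at least 2 libraries, with the counts beside the bars. The constitutive proteasome bar for any library, 9 of 44, is close to that of all coding genes, 3567 of 20037.

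Proteasome promoters were rich in CpG, the dinucleotide that marks promoters of widely used genes. The observed over expected CpG ratio of the window was at least 0.6 in 34 of 38 genes (89.5%), against 65.6% of the 15842 coding genes with a window, and all 9 genes with a summit within 1 kb of a listed start were among the 34. The 4 others, PSMB11, PSMC2, PSMD8 and PSMF1, had no summit within 5 kb. Among coding genes with a ratio of at least 0.6, 24.1% carried a summit at this distance from an end, and among those under 0.6 it was 6.60%. Of the proteasome genes with a ratio of at least 0.6, 9 of 34 carried one (26.5%), and 4 of 34 in at least 2 libraries (11.8%, beside 4.86%). At listed starts within 1 kb the values were 9 of 34 (26.5%) beside 22.5%. Set beside CpG-rich genes, the share of proteasome genes with a summit of any library was close to the background. That for at least 2 libraries, which rests on 4 genes, was higher. Among the 4 is PSMA2, for which an end of another coding gene was nearer to each summit.

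The windows were then searched on both strands for motifs of factors known at such promoters. A SOX core, ACAAAG or ACAATG, was held by 6 of 38 proteasome windows (15.8%, beside 19.5% of all windows). They were PSMA8, PSMC1, PSMD1, PSMD3, PSMD13 and PSMF1, and 0 of these 6 genes had a summit within 5 kb, beside 17.8% of all coding genes, a number too small to read anything from. It was in 0 of 10 core particle windows and 4 of 16 regulatory particle windows. Of the 9 genes with a summit within 1 kb of a listed start, none had a SOX core, beside 19.5% of all windows. Only the outermost window of each gene was searched. In PSMA2, PSMD2, PSMD6 and PSMG2 that window holds no summit, so the letters at their summits were not examined. CCAAT was held by 19 of 38 (50.0%, beside 36.4%) and the antioxidant response element core TGACNNNGC by 10 of 38 (26.3%, beside 14.4%). CCGGAAG, the core of an ETS factor site, was in 14 of 38 windows (36.8%, beside 14.2%). It was in 0 of 10 core particle windows and 9 of 16 regulatory particle windows, those of PSMC1, PSMC2, PSMC6, PSMD6, PSMD7, PSMD8, PSMD12, PSMD13 and PSMD14. Of these 9 genes, PSMD6 alone had a summit within 5 kb, beside 17.8% of all coding genes, again too few genes to read anything from. The GC box GGGCGG was in 25 of 38 (65.8%, beside 58.3%), and TGACGTCA, the site of CREB factors, in 0 of 38 (beside 2.56%). A match is a description of the letters in the window and no measurement of binding.

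**Figure D5:**
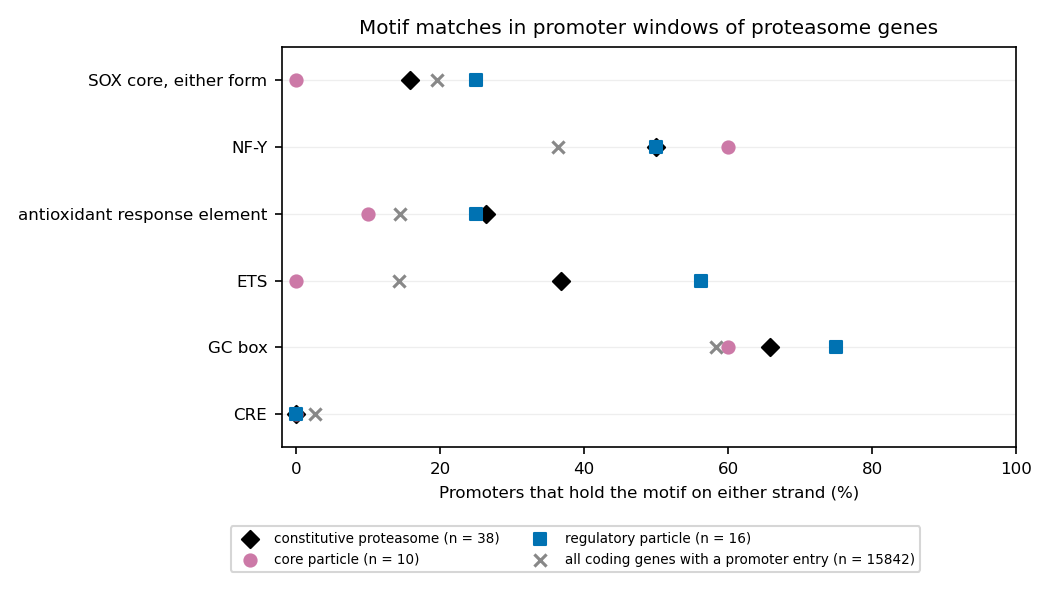
Percentage of promoter windows that hold each motif on either strand, for 38 proteasome genes, 10 core and 16 regulatory particle genes, and 15842 coding genes. The ETS motif is in 56.2% of the regulatory particle windows and in none of the core particle windows, while the SOX core is in 4 of 16 regulatory particle windows, 0 of 10 core particle windows and 19.5% of all windows.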

How the data were processed

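Per the labels' protocols, chromatin was fixed with DSG and formaldehyde before SOX4 was immunoprecipitated, and the DNA was read from both ends on a NextSeq. The submitters' processing notes name BWA, SAMtools, MACS2 and hg19, without versions. The authors deposited 1 list of summits per library and, beside each summit, a −log10 value of its p or q (which of them is not given in the sources used here). Positions are those of GRCh38, because 41 of 55 contig names carry KI270 identifiers and the last summits (83247361 on chromosome 17, 64088674 on 20, 156030493 on X) exceed the hg19 lengths. Genes, listed starts and promoter windows came from RefSeq (GRCh38.p14). With Python 3.11.15, pandas 2.3.3 and numpy 2.4.6, the nearest summit to either gene end was found in each library and counted within 5 kb. The search was tested on simulated data. Every gene with a summit within 5 kb is named, with the 5 nearest outside it. The genes and lists were chosen with earlier results of these data known. Assignment to the nearest coding gene end was added after the data were seen. A gene of the list of cofactors is not reported here.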

Additional observations from a re-analysis of the deposited data

How the results depend on the processing

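The count of 9 of 44 genes with a summit of any library within 5 kb stayed within 1.5 times under a distance of 1 or 10 kb, listed starts, stricter or shorter lists and without PSMA8, PSMB11 and PSMC3IP. It was 18 within 50 kb, 4 in at least 2 libraries and 1 in all 3, and 6 to 8 when 1 library was left out. The count of 4 genes in at least 2 libraries stood beside 3.91% of all coding genes. It was 2 with summits at or above the median score (beside 1.60%) and 2 with lists cut to the shortest (beside 2.25%). Within 1 kb it was 3 (beside 3.20%). Where no other coding gene end was nearer it was also 3, with no background from all coding genes. It was 3 without replicate 1 (beside 2.35%), 2 without replicate 2 (beside 2.41%) and 1 without replicate 3 (beside 1.30%). Leaving out a library can lower but not raise this count, and the share of all coding genes fell too. The 3 core genes became 6 within 50 kb, 0 in all 3 libraries and 1 where no other coding gene end was nearer, an assignment added after the data were seen. The 3 regulatory particle genes became 6 within 50 kb, 1 at or above the median score, 1 with lists cut to the shortest, and 0 in at least 2 or all 3 libraries. They numbered 3 without replicate 1 and 1 without replicate 3. The background of the core and regulatory particle counts at each setting is the share of all coding genes given above. The core minus regulatory particle difference of 3.78 percentage points was 9.66 within 1 kb, 10.9 within 10 kb, 15.5 at or above the median score, 15.5 with lists cut to the shortest, 17.5 at listed starts and 14.3 in at least 2 libraries. It ranged from 3.78 to 9.66 with 1 library left out, and turned to -4.62 where no other coding gene end was nearer. That last value rests on 1 core gene and 2 regulatory particle genes and has no background from all coding genes. Beyond fewer summits or genes entering each count, the cause was not tested. No paired analysis was possible because there was 1 group. The sequencing depth is unknown, so its part in any count was not tested.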
